A study of Rattus norvegicus with 20 samples.

Results

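The transcripts described here had a higher level in ribosomal-RNA-depleted libraries of the rat hippocampus than in libraries made by polyA selection. They are 200 of the 32883 rows of the deposited table, in which each row stands for 1 gene. In the polyA libraries some of them were absent, while others kept many reads. The members were chosen by their measured levels: L was defined as the mean of the ribosomal-RNA-depleted samples plus 5, divided by the mean of the polyA samples plus 5, in normalized counts. Rows with a mean of at least 50 in the ribosomal-RNA-depleted samples and an L of at least 4 were ranked by L, and the first 200 were taken. Both limits were met by 258 rows, so that 58 rows were left outside. The higher level in the ribosomal-RNA-depleted libraries is thus fixed by the choice and is given without a test, while the difference between the dorsal and the ventral part was not used to choose the members.

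The samples came from male Wistar rats aged 3 months that were handled as controls and given no treatment. From each animal the dorsal and the ventral part of the trisected hippocampus were taken, so that each animal gave 1 sample of each part. In 7 animals the RNA was enriched with oligo(dT) beads (polyA), and in 3 other animals the ribosomal RNA was removed with a depletion kit (RBD). The RNA of the polyA animals was extracted with Qiazol and that of the RBD animals with ExtractRNA, so that library type, animals and extraction reagent cannot be told apart.

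Most messenger RNAs of animal cells carry a tail of adenosines at their 3′ end, and oligo(dT) beads hold RNA by this tail. Several kinds of RNA lack it, among them the messenger RNAs of replication-dependent histones, the small nuclear and small nucleolar RNAs, the RNA components of the signal recognition particle and of the 7SK complex, and circular RNAs. Unfinished transcripts that are still bound to the polymerase also have no tail. Libraries made after depletion of ribosomal RNA keep all of these, apart from those lost by their short length. The rows of the deposited table carry no gene identifiers. Therefore no member could be given a name, a function, a position in the genome or a sequence, it is not known which of these RNA classes the members belong to, and the labelled tissue could not be checked against marker genes. Members are given by their row number, counted from 1 at the first row of values.

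All values are read counts per gene divided by a size factor of the sample (normalized counts), with factors common to the 20 samples. They are not divided by gene length, so the same row can be compared between samples, but different rows cannot be ranked by their number of molecules. The samples held 23825086 to 25262001 reads on genes in polyA and 14920611 to 18647986 in RBD libraries. In bulk tissue, fewer cells of a type and less RNA per cell cannot be told apart.

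The members differed widely in how far they were depleted. The median L was 10.7, with a range of 4.87 to 4099, while the median L of all 12650 rows with an RBD mean of at least 50 was 1.02. Of the members, 7 had an L below 5, 84 were from 5 to below 10, 61 from 10 to below 20 and 26 from 20 to below 100. The remaining 22 members had an L of 100 or more. The median of the members' mean levels was 245 normalized counts in RBD and 6.75 in polyA samples, and the RBD means spanned 50.1 to 72827. There were 63 members with an RBD mean below 100, 91 from 100 to below 1000 and 46 of 1000 or more. Every member had reads in each of the 6 RBD samples, whereas 153 to 167 of the 200 had at least 1 read in a given polyA sample. In 14 members no polyA sample had a read, and in 40 members no polyA sample had more than 3 reads. For 192 of the 200 members the lowest RBD sample lay above the highest polyA sample, against 20.4% of all rows with an RBD mean of at least 50. The choice by L used this contrast, so nothing is read from the count.

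**Figure D1:**
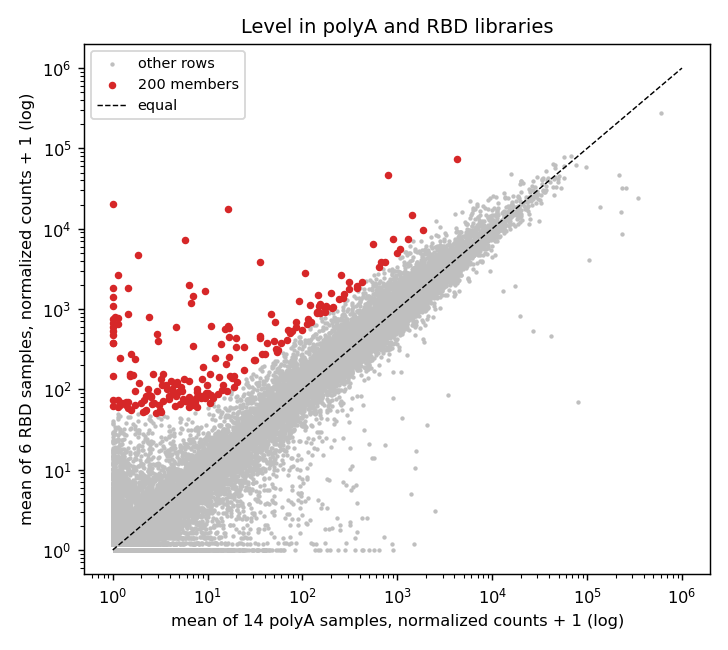
Mean level of each row in the 14 polyA samples (x axis) and the 6 RBD samples (y axis), in normalized counts plus 1 on log axes. Red points are the 200 members, grey points the other rows with reads, and the dashed line marks equal levels. The members lie above the line by the choice, and 14 of them lie at the left edge with no polyA read.

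The choice by L used the samples of both parts, so the following values are given as a description. When L was computed from each part alone, its median over the members was 9.48 for the dorsal part and 11.3 for the ventral part, and 81 members had the higher L in the dorsal part. In 197 members L was at least 4 in both parts, as it was in 1.84% of all rows with an RBD mean of at least 50. The exceptions were rows 22807 and 20851, with a ventral L of 3.31 and 2.33, and row 1603, with a dorsal L of 3.88.

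The list depended little on any single polyA animal. Without each polyA animal in turn, all 200 members met both limits again and 196 to 198 were among the first 200 rows. The RBD animals, of which there were only 3, carried more weight. Members that met both limits numbered 196 without RBD replicate 1, 198 without replicate 2 and 192 without replicate 3, and 188 to 191 were among the first 200 rows. With an L computed on the share of reads, 199 of the 200 members were the same.

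At the top of the list was row 3425. Its RBD values were 24503, 28502 and 25706 normalized counts in the dorsal part and 15103, 15405 and 13716 in the ventral part, in the order of replicates 1, 2 and 3. No read was counted in any of the 14 polyA samples. With 3 reads per polyA library as the floor, the RBD mean was at least 7282-fold higher, a bound that covers counting error only. The lowest dorsal RBD value lay well above the highest ventral one. The log2 fold change of ventral to dorsal was −0.83 (SE 0.080, n = 3 animals), with an adjusted p of 2.1e-04 in limma.

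Row 25315 had the next highest L, 863. Its RBD values were 14802, 25622 and 16774 in the dorsal and 13593, 19422 and 14511 in the ventral part, against polyA values of 4.47 to 37.5. The dorsal sample was the higher one in all 3 RBD animals, but the animals differed more than the parts, and the groups overlapped. The log2 fold change of −0.24 (SE 0.20) had an adjusted p of 0.45 in limma, and of 0.0078 once the animal was entered as a block.

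The row with most RBD reads among the members was 3282, and it was also the one with most polyA reads (L of 17.1). Its RBD values were 91130, 74644 and 84139 in the dorsal part and 65958, 47033 and 74060 in the ventral part. The dorsal polyA samples ranged from 3652 to 6978 (median 4696) and the ventral ones from 2596 to 4583 (median 3767). The dorsal sample was higher in each of the 10 animals, although the ranges of the parts overlapped in polyA and, in RBD, were separated by a narrow gap only. The log2 fold change was −0.44 (SE 0.17, adjusted p 0.099 in limma) in RBD and −0.52 (SE 0.15, adjusted p 0.0073) in polyA.

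The row directly before it, 3281, held the next highest RBD mean, and its L was 57.9. It had RBD values of 60873, 50994 and 50174 in the dorsal part and 43256, 30372 and 46014 in the ventral part. The polyA samples ranged from 680 to 1444 (median 825) in the dorsal and from 457 to 826 (median 653) in the ventral part. Like its neighbour it was higher in the dorsal sample of all 10 animals, with log2 fold changes of −0.46 (SE 0.16, adjusted p 0.076 in limma) in RBD and −0.57 (SE 0.17, adjusted p 0.010) in polyA. In both rows the RBD call of this unblocked fit was lost when any one of the 3 RBD animals was left out. With the animal as a block and all RBD animals, the adjusted p in limma was 0.0024 for row 3281 and 0.0016 for row 3282. The blocked limma fit in polyA gave 8.5e-06 and 4.2e-08.

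Row 14412, with the second highest polyA mean of the members, showed no such difference. In RBD libraries it had 9783, 8737 and 9298 normalized counts in the dorsal and 9899, 9210 and 10393 in the ventral part, and its polyA samples ranged from 1144 to 2319 (median 1917) and from 1161 to 2547 (median 1876). Both groups overlapped in either library type. Fold changes on the log2 scale were small, at 0.08 (SE 0.069, adjusted p 0.44 in limma) in RBD and 0.02 (SE 0.17, adjusted p 0.92) in polyA.

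The list ended within a dense series of rows. The last 2 members, rows 20378 and 20232, had an L of 4.887 and 4.871. The first rows left outside were 4978 and 22814, at 4.870 and 4.866. Row 22814 had an RBD mean of 12583 and a polyA mean of 2582.

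Together the members took a larger share of the reads in the dorsal than in the ventral RBD samples. The share was 1.66 to 1.67% of the reads on genes in the 3 dorsal samples (mean 1.66 ± 0.00516%, SD) and 1.27 to 1.48% in the 3 ventral ones (1.39 ± 0.107%). In polyA samples it was 0.0863 to 0.140% (median 0.113%) in the dorsal and 0.0714 to 0.111% (median 0.0989%) in the ventral part. The log2 ratio of the ventral to the dorsal share was −0.23, −0.38 and −0.16 in RBD animals 1 to 3. It was below 0 in 6 of the 7 polyA animals, from −0.50 to −0.019, and 0.061 in polyA replicate 4. A few rows with many reads weigh heavily in this share, among them rows 3282, 3281 and 3425. Each of them was higher in the dorsal sample of all RBD animals, and only row 3282 was left out below. Without row 3282 the share was 1.24 to 1.32% in dorsal and 1.06 to 1.13% in ventral RBD samples, and the log2 ratios of the RBD animals were −0.17, −0.32 and −0.18. In polyA the ratios without this row were below 0 in 4 of the 7 animals (−0.47, −0.28, −0.065 and −0.35 in replicates 2, 3, 6 and 7) and above 0 in the other 3 (0.098, 0.16 and 0.052 in replicates 1, 4 and 5).

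**Figure D2:**
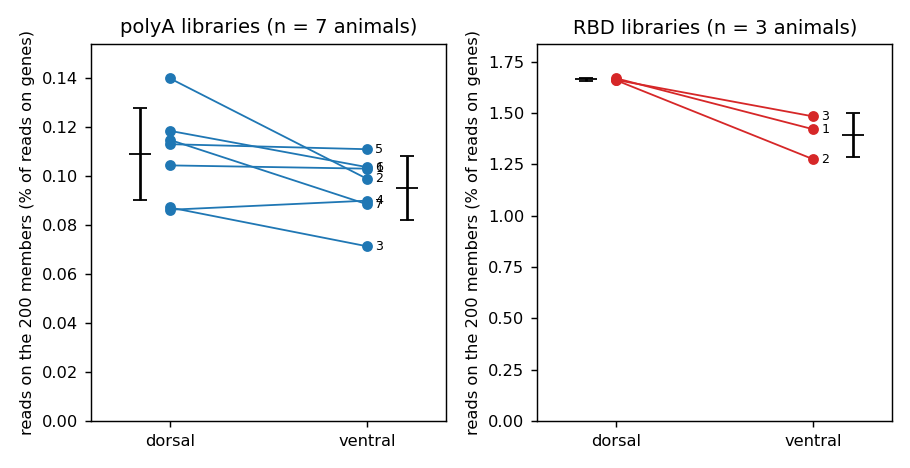
Reads on the 200 members as a percent of all reads on genes (y axis, from 0, with a different scale for each library type) in the dorsal and ventral sample of each animal. Lines join the samples of an animal, numbers give the replicate, and black bars are the mean ± SD of each group. The ventral share is the lower one in all 3 RBD animals and in 6 of 7 polyA animals, of which 4 remain when row 3282 is left out.

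Counted row by row, the members did not share this direction. Differential expression between the parts was tested with limma on log2(normalized counts + 1) over all rows that passed a filter on low counts, and a row was called at a Benjamini-Hochberg adjusted p below 0.1. Positive fold changes stand for higher values in the ventral part, and the added 1 understates the change of rows with low counts. All 200 members were tested in RBD. The list required a high RBD level, so all of them were bound to pass the filter. Of these, 58 (29.0%) were called, against 28.4% of the 14699 rows tested. In this fit, which has no animal term, members were thus called about as often as any row. There were 38 members called higher in the ventral part (19%, against 14.4% of all rows) and 20 in the dorsal part (10%, against 14%). The median log2 fold change was 0.05 over the members and 0.00 over all rows, and the median absolute value was 0.26 and 0.18, with a median SE of 0.18 and 0.11. The log2 fold change was 1 or more in absolute value for 15 members (7.50%, against 5.70% of all rows), 7 towards the ventral and 8 towards the dorsal part, and 9 of the 15 were called.

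These counts moved with the model and with the animals included. With the animal as a block, 99 members (49.5%) were called, against 40.1% of all rows. Members were thus called more often than all rows in the blocked fit. Without RBD replicate 3 only 20 members were called, 9 ventral and 11 dorsal, against 14.7% of all rows, and without replicate 1 there were 32, against 17.8%. Among members with an RBD mean from 50 to below 300, 32 of 106 (30.2%) were called, against 21.6% of all rows at that level. The numbers were 9 of 48 (18.8%, against 28.0%) from 300 to below 1000 and 17 of 46 (37.0%, against 40.0%) above.

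In polyA libraries the filter left only 89 of the 200 members, those with the most polyA reads, and the other 111 were not tested. Here 26 members (29.2%) were called, against 52.9% of the 15152 rows tested. There were 11 ventral calls (12.4%, against 25.3%) and 15 dorsal calls (16.9%, against 27.5%). With the animal as a block, 41 (46.1%) were called, against 59.8% of all rows. The median absolute log2 fold change was 0.21 in members and 0.16 in all rows, and 5 members (5.62%) reached an absolute value of 1, against 3.93%. A larger SE also raises absolute fold changes, so these values do not show whether the differences themselves were as large. The SE of the members was larger than that of all rows, with a median of 0.19 against 0.062. This was so at each level. Below a polyA mean of 50 the median SE was 0.25 in members and 0.19 in all rows, from 50 to below 300 it was 0.14 and 0.091, from 300 to below 1000 it was 0.16 and 0.051, and above that 0.15 and 0.038. The share called was lower among members at each of these levels, at 7 of 39, 12 of 33, 5 of 12 and 2 of 5, against 32.5%, 47.7%, 55.2% and 66.4%.

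Within a polyA animal, many members moved in the same direction. The median log2 ratio of ventral to dorsal over the 89 members was −0.35, −0.21 and −0.21 in polyA replicates 2, 3 and 7, where only 28, 29 and 30 of the 89 were higher in the ventral part. It was 0.16, 0.25, 0.094 and 0.073 in replicates 1, 4, 5 and 6, with 54, 61, 51 and 49 members higher in the ventral part. Over all rows tested the medians lay between −0.015 and 0.00014 in the same 7 animals. In the 3 RBD animals the medians were 0.087, −0.052 and 0.090. These are over all 200 members and fewer animals, so their spread is not compared with that in polyA. The overall level also differed between polyA animals. Relative to the mean of the animals, the median log2 level of the 89 members, over both parts, was −0.27 in replicate 3 and 0.21 in replicate 5, and 34 of the 89 had their highest level in replicate 5.

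Of the 89 members tested in both datasets, 32 were called in RBD, 18 ventral and 14 dorsal, and 14 were called in both, all with the same sign (6 ventral, 8 dorsal). This was 15.7% of the 89, against 24.7% of all 14174 rows tested in both, and over all rows 99.8% of those called in both had the same sign. The 14 made up 43.8% of the RBD calls and 53.8% of the polyA calls among these members, and the corresponding shares over all rows were 85.7% and 45.2%. The sign was the same for 65 of the 89 (73.0%), called or not, and for 76.2% of all rows tested in both. Another 26 RBD calls, 20 ventral and 6 dorsal, were of members that could not be tested in polyA, and 7 of these rows had at most 3 reads in every polyA sample.

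**Figure D3:**
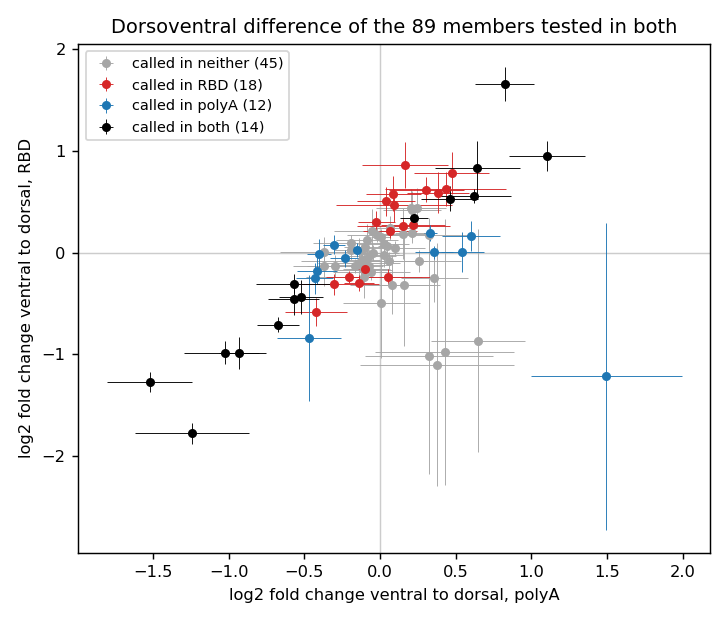
Log2 fold change of ventral to dorsal in polyA (x axis, n = 7 animals) and RBD (y axis, n = 3 animals) for the 89 members tested in both, with bars for the SE of each fit. Colours show the calls at an adjusted p below 0.1 in limma, and the 14 black points called in both lie only where both fold changes are negative or both positive.

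Among the members called dorsal in RBD with the same direction in all 3 RBD animals, the largest differences were those of rows 25935 and 15046. Row 25935 (L of 10.4) had RBD values of 4434, 4523 and 3511 in the dorsal and 1161, 1302 and 1158 in the ventral part. In polyA it ranged from 100 to 707 (median 356) in the dorsal and from 50.1 to 188 (median 140) in the ventral part. The RBD groups stood far apart, while the polyA groups overlapped. The log2 fold change was −1.78 (SE 0.10, adjusted p 1.6e-05 in limma) in RBD and −1.24 (SE 0.38, adjusted p 0.012) in polyA, with polyA replicate 4 the only one of 10 animals in which the ventral sample was higher (log2 ratio of 0.10).

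Row 15046 (L of 5.30) had RBD values of 424, 479 and 423 in the dorsal and 184, 177 and 185 in the ventral part, and polyA values of 31.7 to 129 (median 86.5) and 15.5 to 45.8 (median 26.8). The dorsal sample was higher in all 10 animals and the RBD groups did not overlap. Ventral to dorsal, its log2 fold change was −1.27 (SE 0.098, adjusted p 6.8e-05 in limma) in RBD and −1.52 (SE 0.28, adjusted p 2.2e-04) in polyA.

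Among the members called ventral in RBD with the same direction in all 3 animals, row 24930 (L of 6.04) had the largest difference. Its RBD values were 44.2, 22.8 and 14.6 in the dorsal and 98.0, 77.2 and 118 in the ventral part, with a log2 fold change of 1.93 (SE 0.38, adjusted p 0.0077 in limma). In polyA it had a mean of 6.18 normalized counts and was not tested, and the ventral sample was higher in all 7 animals, by log2 ratios of 0.24 to 2.64. The groups did not overlap in RBD, and the dorsal values were low.

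Row 14312 (L of 6.42) had dorsal RBD values of 64.2, 63.5 and 65.9, which lay close together, and ventral values of 249, 172 and 202. Its polyA samples ranged from 8.44 to 14.7 (median 11.7) in the dorsal and from 10.7 to 29.2 (median 24.1) in the ventral part. The ventral sample was higher in all 10 animals. The log2 fold change was 1.65 (SE 0.17, adjusted p 2.6e-04 in limma) in RBD and 0.82 (SE 0.20, adjusted p 0.0022) in polyA.

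The members were not spread evenly over the table. Another member lay within 3 rows of 76 of the 200 members (38.0%), whereas a member lay within 3 rows of 2.66% of the 12450 other rows with an RBD mean of at least 50. Whether rows that follow each other in the table are neighbours in the genome is not stated, and reads shared between overlapping genes could not be checked. When members no more than 3 rows apart were joined, 5 runs held 4 or more members, 41 members in all. This limit was set after the rows had been seen, and the runs are described without a test of their own.

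The longest run, rows 15474 to 15501, held 18 members among 28 rows, and these 18 were all the rows of that stretch with an RBD mean of at least 50. They had low levels, with RBD means of 59.7 to 440, polyA means of 1.22 to 34.8 and an L of 6.22 to 21.6. All 18 had a positive log2 fold change in RBD (median 0.74, range 0.30 to 1.18), and 16 were called ventral and 0 dorsal in limma. Rows 15492 and 15493 were not called, with adjusted p-values of 0.35 and 0.10. Row 15479 had the largest change. In RBD samples it had 55.6, 43.1 and 48.8 in the dorsal and 123, 79.5 and 145 in the ventral part, with a log2 fold change of 1.18 (SE 0.25, adjusted p 0.0100 in limma) and no overlap.

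Summed over the 18 rows, the RBD level was 1760, 1855 and 1604 normalized counts in the dorsal and 2896, 2330 and 3218 in the ventral part, which gave log2 ratios of 0.72, 0.33 and 1.00. The polyA sum was 99.7 to 154 in the dorsal and 136 to 225 in the ventral part, and its log2 ratio was above 0 in all 7 animals, from 0.14 to 0.88. The ventral sum was thus the higher one in each of the 10 animals. Of the 5 rows of the run that were tested in polyA all had positive fold changes (0.31 to 0.64), and 2 were called. The other rows of the stretch that could be tested in RBD, 6 in number and not members, also had positive fold changes (median 0.76), and 2 of them were called ventral. The number of calls rested on the animals included. It was 2 of 18 without RBD replicate 3 and 7 without replicate 1, while all 18 fold changes remained above 0 in each of these fits.

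A second run, rows 26705 to 26725, had the opposite direction. It held 11 members among 21 rows, with RBD means of 70.7 to 801. The median log2 fold change was −0.35 (range −0.73 to 0.01), and 4 members were called dorsal and 0 ventral in limma. The summed RBD level was 2554, 2937 and 2691 in the dorsal and 2308, 2459 and 2036 in the ventral part, with log2 ratios of −0.15, −0.26 and −0.40. The polyA sum was 53.7 to 78.9 in the dorsal and 37.6 to 61.3 in the ventral part, and its log2 ratio lay below 0 in all 7 animals, from −0.76 to −0.12. Without 1 RBD animal, 1 or 2 of the 11 were called. Row 26712, the member of this run with the highest RBD mean, had RBD values of 686, 890 and 823 in the dorsal and 842, 847 and 719 in the ventral part, which overlapped, and a polyA mean of 1.42.

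**Figure D4:**
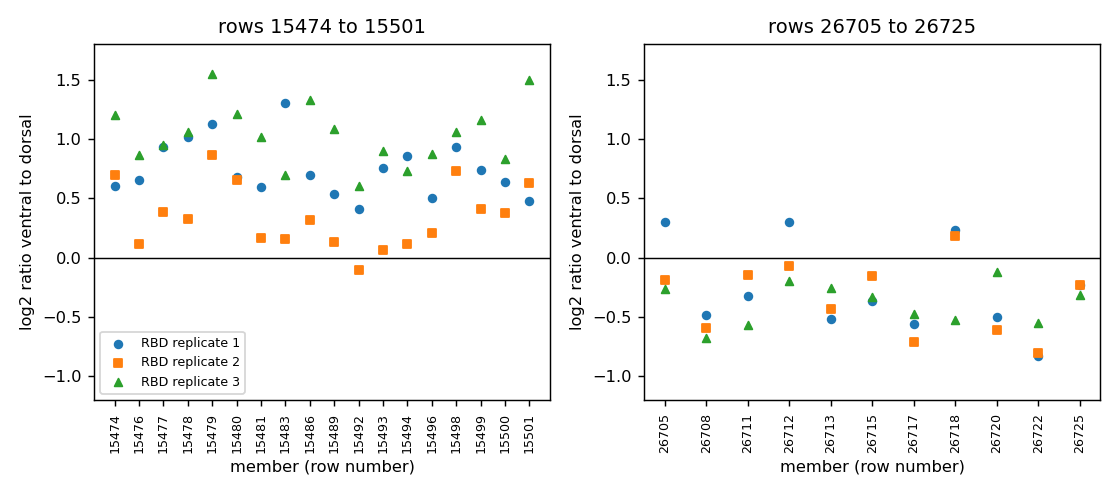
Log2 ratio of the ventral to the dorsal sample, in normalized counts plus 1, of each RBD animal for the members of 2 runs (x axis, by row number). Symbols mark the 3 animals and the black line equal values. In rows 15474 to 15501 all but 1 of the points lie above the line, with replicate 2 mostly nearest to it, and in rows 26705 to 26725 most points lie below it.

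Other runs showed no call in limma, apart from 1 ventral call among the 4 members of rows 1675 to 1680 (median log2 fold change of 0.44). The summed level of these 4 had log2 ratios of 0.52, 0.19 and 0.94 in the RBD animals. In polyA, where the sum was only 2.68 to 22.8 normalized counts and none of the 4 was tested, the ratio was below 0 in 6 of the 7 animals (−0.59 to −0.052) and 0.13 in replicate 7. The 4 members of rows 31239 to 31243 were nearly free of polyA reads, with polyA means of 0 to 0.446 normalized counts and an L of 15.6 to 522. Their summed RBD level was 4898, 5428 and 5510 in the dorsal and 5219, 5896 and 5249 in the ventral part, and the groups overlapped. Of the 41 members in the 5 runs, 17 were called ventral and 4 dorsal. Outside the runs 37 of 159 members were called, 21 ventral and 16 dorsal, so 17 of the 38 ventral calls of the list came from runs.

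Some members differed more between RBD animals than between the parts. The range of the animals' mean log2 levels had a median of 0.31 over the members and 0.19 over all rows tested in RBD. A range of at least 2, that is 4-fold, was found for 9 members (4.50%), against 0.701% of all rows. The choice used the mean of the RBD samples, so a row high in 1 RBD animal could enter the list through it. Nothing is therefore read from the members' larger ranges. In 8 of these 9, replicate 3 was the highest and replicate 1 the lowest animal, and in 7 of the 8 the dorsal sample was above the ventral one in all 3 animals.

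Row 29562 had the most reads among them. This row had 374, 2110 and 9949 in the dorsal part of replicates 1, 2 and 3, and 285, 1068 and 3097 in the ventral part, all in RBD libraries. Its polyA samples lay between 19.1 and 266. Rows 30901, 30902, 30903 and 30906, a run of members, had the same order of animals. Row 30902, for example, had 57.0, 449 and 2181 in the dorsal and 42.6, 255 and 669 in the ventral part, and row 30901 had 28.5, 133 and 1512 in the dorsal and 14.2, 85.3 and 303 in the ventral part. Their log2 fold changes in RBD were −0.86 to −1.30, with 0 of the 4 called in limma and 4 of 4 with the animal as a block. Rows 807, 19509 and 22807 were likewise highest in replicate 3. Row 29133 had another order, with 475, 1113 and 20.7 in the dorsal and 471, 108 and 16.8 in the ventral part. With 3 RBD animals, the levels of the 8 members highest in replicate 3 rest mostly on that animal, and that of row 29133 on replicates 1 and 2. Whether these members belong to the tissue itself could not be checked without gene names.

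**Figure D5:**
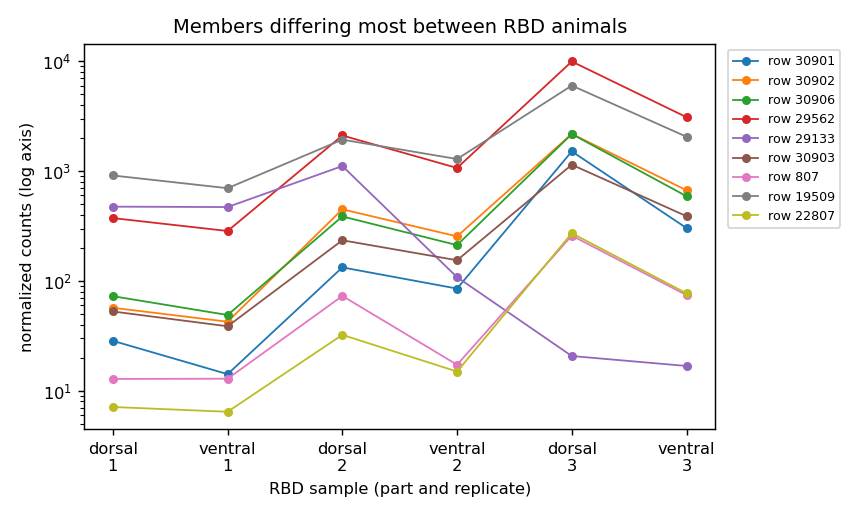
Level of the 9 members with the largest differences between RBD animals, in normalized counts on a log axis, in the dorsal and ventral RBD sample of replicates 1, 2 and 3. Lines join the values of a row. Of the 9 rows, 8 are highest in replicate 3, while row 29133 is lowest there.

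Whether the dorsoventral difference differed between the RBD and the polyA dataset was tested as an interaction in limma fitted jointly to both datasets and blocked by animal, for rows tested in both datasets, and 8 of the 89 members (8.99%) were called, against 10.2% of all rows. The members were thus not called more often than other rows. In 5 of the 8 the RBD fold change was the lower one, and these were all rows with large differences between RBD animals, namely 30902, 30906, 30903, 29562 and 29133. The RBD and the polyA fold change had opposite signs in each of them. Row 29133 had a log2 fold change of −1.22 in RBD and 1.50 in polyA, a difference of −2.71 (SE 0.67, adjusted p 0.035 in limma). The ventral sample was lower in all 3 RBD and higher in all 7 polyA animals, but the polyA values were only 0.938 to 37.1 normalized counts. The RBD value rested on replicate 2, with log2 ratios of −0.012, −3.35 and −0.29 in the 3 animals. Without that animal it was −0.15 and the interaction was not called, at −1.65. Without polyA replicate 3 or 4 the row did not pass the filter and was not tested in polyA or for the interaction. In RBD alone the fold change had an adjusted p of 0.63 in limma, and of 0.056 with the animal as a block.

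Row 30903 had −0.86 in RBD and 0.65 in polyA, a difference of −1.51 (SE 0.40, adjusted p 0.046 in limma). Its RBD values were 52.8, 235 and 1144 in the dorsal and 38.7, 154 and 389 in the ventral part, and its polyA samples ranged from 9.10 to 25.7 (median 17.1) and from 10.4 to 50.5 (median 28.6). The ventral sample was lower in all 3 RBD animals and higher in 5 of the 7 polyA animals. Without RBD replicate 3 the call was lost, at −1.17.

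The other 3 had the higher fold change in RBD. In row 14312 it was 1.65 in RBD and 0.82 in polyA, a difference of 0.83 (SE 0.28, adjusted p 0.092 in limma), and this call was lost without any one animal other than polyA replicate 1. Rows 27832 and 7203 had fold changes of −0.30 and −0.40 in polyA, where the dorsal sample was higher in all 7 animals, and of 0.08 and −0.02 in RBD. Their interactions had adjusted p-values of 0.093 and 0.097 in limma, close to the threshold. With size factors within each dataset, 6 members were called by interaction, and 0 of them had the higher fold change in RBD. At an adjusted p below 0.05 it was 0 of 5. Without RBD replicate 3, 2 members were called in this test. Without the block 0 were called by limma, with 3 at an unadjusted p below 0.05.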

How the data were processed

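Gene expression was measured by RNA-seq in 20 hippocampal samples of 10 rats. Per the labels and the study's methods, the authors mapped reads with STAR 2.7.9a to Rnor 6.0 and counted them per gene with featureCounts 2.0.1. STAR was run with default parameters, and the strand and multi-mapping settings of the counting are not given in the sources used here. The deposited signal values are gene counts divided by DESeq2 (1.29) size factors, common to all 20 samples. The study's methods instead describe normalization of each dataset, and L depends on the common scale. All values above 0 (100%) were whole multiples of 1 read (tolerance 0.001 reads), so reads were recovered. The table has no identifiers, and 7623 rows were 0 in every sample.

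The members and lists were chosen with earlier results of these data known. Rows kept by filterByExpr on reads (minimum count 10, minimum total 15) were tested on log2(normalized counts + 1) with limma 3.58.1 in R 4.3.3 (lmFit and trended eBayes), each dataset alone, without an animal term since the study names none. The p-values of these fits measure the spread between animals within each part. In fits with the animal as a block they measure how the dorsoventral difference varies between animals. The animal of each sample was taken from the replicate number in its title. In polyA the sample descriptions of a replicate also share a number between the parts, while in RBD they do not. The samples of an animal deviated together from the group means, with correlations across rows of 0.27 to 0.48 in polyA and 0.36 to 0.52 in RBD. Over the members these were 0.015 to 0.69 and 0.50 to 0.88. Blocked fits were therefore also made.

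Rows named were the 2 with the highest L, RBD mean and polyA mean, the 2 largest RBD changes in each direction among members called and with 1 direction in all RBD animals, the 2 largest called interactions, and 2 rows on each side of the end of the list. Members of runs, members with an L below the limit in 1 part, members varying between animals and rows 27832 and 7203 were chosen after their values were seen. Alternatives were edgeR 4.0.16 and DESeq2 1.42.0 on the reads, other pseudocounts (0.1 and 5), no filter, size factors within a dataset, an adjusted p below 0.05, other forms of L, and leaving out each animal. The scripts were tested on simulated data. Lower bounds use 3 reads per library and cover counting error only.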

Additional observations from a re-analysis of the deposited data

Results flagged for a closer look

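In the ventral polyA group, row 25315 had 37.5 normalized counts in replicate 4, far from the other 6 samples, which lay between 4.47 and 16.4. The dorsal sample of the same animal was also the highest of its group, at 33.5, with the others at 5.46 to 22.0. Row 20378 had 290.0 in ventral polyA replicate 1, while the other 6 samples lay between 190 and 232. For the named rows, 38 groups were examined for such samples and 2 were found, and about 1 in 20 groups, or 1.9 of the 38, would be found by chance.

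In limma with the animal as a block, 3 named rows had a called interaction of the dorsoventral difference with the dataset, RBD or polyA. On the log2 scale it was 0.83 in row 14312, −2.71 in row 29133 and −1.51 in row 30903. Without the block none of them was called. Each call was also lost without at least 1 of the animals, as given above. Of these 3 rows, 29133 and 30903 were among the 9 members whose level differed at least 4-fold between RBD animals. The part of this spread between animals in the result was not tested.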

How the results depend on the processing

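Of the counts of members, the counts called, the median fold changes and the shares under other settings, 78 values stayed within 1.5 times the main count or within the spread between animals. The median log2 fold change of the members in polyA was near 0 and had no fixed sign, at −0.074 to 0.045 without 1 polyA animal. In RBD, 58 members were called, 99 with the animal as a replicate block, 20 to 52 without 1 RBD animal (20 without replicate 3, 32 without replicate 1), and 37 outside the runs. In polyA, 26 members were called, and 41 with the block. By interaction 8 members were called with the block, 0 without it (3 at an unadjusted p below 0.05 in limma), 5 at an adjusted p below 0.05, 1 with DESeq2 (which gave no adjusted p for 51 of the 89 members, 6 of the 8 among them), 9 with edgeR, and 2 to 7 when 1 animal was left out (2 without RBD replicate 3). The cause of these changes was not tested, apart from fewer samples or members. For single rows, 458 values stayed on the same side of the threshold, 29 lost a call and 11 gained one. The calls of rows 20378 and 20232 in polyA were lost without polyA replicate 1, that of row 20378 also without polyA replicate 4, and its RBD call without RBD replicate 3. In polyA, where the list was chosen for levels far below those in RBD, 89 members had enough reads to be tested. The RBD values rest on 3 animals, and library type cannot be told apart from the animals and the extraction reagent.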
